A study of Mus musculus with 11 samples.

Results

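The proteasome genes are the 49 of 21631 protein-coding genes on chromosomes 1 to 19 and X whose symbols begin with Psma, Psmb, Psmc, Psmd, Psme, Psmf or Psmg and a digit, leaving out Psmb8 and Psmb9. The rule takes genes by symbol alone and by no measured value, but it was set with earlier results of these data known. By role, 7 encode 20S alpha subunits, 7 encode constitutive 20S beta subunits, 3 encode inducible or tissue-restricted 20S subunits, 6 encode 19S ATPases, 11 encode 19S non-ATPases, 3 encode 19S assembly chaperones, 5 encode activators, 1 encodes an inhibitor and 4 encode 20S assembly chaperones. The remaining 2, Psme3ip1 and Psmc3ip, were taken by their symbols. They encode a binding partner of the activator Psme3 and a meiotic recombination factor, and neither is a proteasome subunit, which leaves 47 genes of the complex and its helpers.

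The proteasome is the protease that degrades proteins tagged with ubiquitin. Its 20S core is a stack of rings, with alpha subunits forming the gate and beta subunits carrying the proteolytic sites, and the 19S cap unfolds substrates with ATPases and receives and deubiquitinates them with non-ATPase subunits. The genes are active in nearly every cell type, and the transcription factor Nfe2l1 raises many of them together when proteasome activity is short.

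CUT&RUN, which cuts out and sequences the DNA around an antibody's target in opened cells, was performed on 2 mouse tumour-derived cell lines, M00002 and M00001, each carrying an HA-tagged fusion that the series title gives as ZFTA-RELA. Both lines were untreated cultures in neural medium with growth factors, and every group shared the fusion, so no line without it was compared. M00002 gave libraries for HA, p65, H3K27ac with antibody ac4729, H3K27ac with antibody ac647, and IgG. M00001 gave libraries for HA, Cbp, p300, Rpb1 S2, Rpb1 S5 and IgG. HA reads the tagged fusion. An antibody to p65, which is the Rela protein, may read native p65 and the fusion alike, and these cannot be told apart here. H3K27ac marks active promoters and enhancers, Cbp and p300 are acetyltransferases that can place it, Rpb1 is the largest subunit of RNA polymerase II, and the meaning of S2 and S5 is not given in the labels.

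Each of the 11 lists came from 1 library, so there is no replicate for any target in any line, and the read depth is unknown. The lists held 9365 to 30680 peaks for the 2 HA libraries, 6608 to 29626 for the other targets and 1806 to 7045 for IgG. In M00001, the 4 libraries of Cbp, p300 and Rpb1 have a title code absent from HA and IgG, and in M00002 a size mark stands on the names of the HA and p65 lists alone. What they denote is not stated. Median peak width was 116 bp for HA of M00002 and 208 bp for HA of M00001. H3K27ac of ac4729 in M00002 lay at 5 of 8 neural stem cell markers, 1 of 6 leukocyte markers (Csf1r) and 0 of 5 endothelial markers. Rpb1 S2 in M00001 lay at 3 of 8, 0 of 6 and 0 of 5. Over all protein-coding genes other than the proteasome genes, the shares were 32.3% for ac4729 and 40.7% for S2.

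Most proteasome genes had H3K27ac of antibody ac4729 in M00002 and Rpb1 S2 in M00001, 7 had H3K27ac of antibody ac647, and 3 had HA in both lines. A gene was counted for a list when a peak of it lay within 1 kb of either coordinate end of the gene, and a gene described as having no peak had none in these windows. H3K27ac of ac4729 was present at 36 of 49 proteasome genes (73.5%, exact 95% binomial interval 58.9 to 85.1%), against 32.3% of all other protein-coding genes. Rpb1 S2 was present at 41 proteasome genes (83.7%, 70.3 to 92.7%), against 40.7% of other genes. Rpb1 S5 was present at 21 (42.9%, 28.8 to 57.8%), against 20.9%. These intervals, exact binomial throughout, cover counting error over genes only.

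The fusion lay at a minority of the proteasome genes in either line. HA of M00002 was present at 16 proteasome genes (32.7%, 19.9 to 47.5%), against 25.3% of other genes, and HA of M00001 at 4 (8.16%, 2.27 to 19.6%), against 10.2%. HA in both lines was counted at 3 (6.12%, 1.28 to 16.9%), against 9.01%, and at these 3 genes the HA peaks of the lines overlapped. p65 was present at 7 (14.3%), against 15.4%. Each of these intervals holds the share of other genes.

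The remaining lists gave shares near those of other genes. H3K27ac of ac647 lay at 7 proteasome genes (14.3%), against 13.1% of other genes, and all of these also had ac4729, so that H3K27ac of both antibodies was counted at 7 (14.3%), against 12.1%. Cbp was present at 2 (4.08%), against 3.53%, and p300 at 3 (6.12%), against 6.66%. Every Cbp and p300 peak at a proteasome gene had a −log10 q below 2, so none would remain at that threshold. Few other genes kept a peak there either, at 1.01% for Cbp and 3.75% for p300. IgG of M00002 lay at 1 gene, Psmc3 (2.04%), against 1.44% of other genes. IgG of M00001 lay at 0 of 49 (upper bound 7.25%), against 0.422%.

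**Figure D1:**
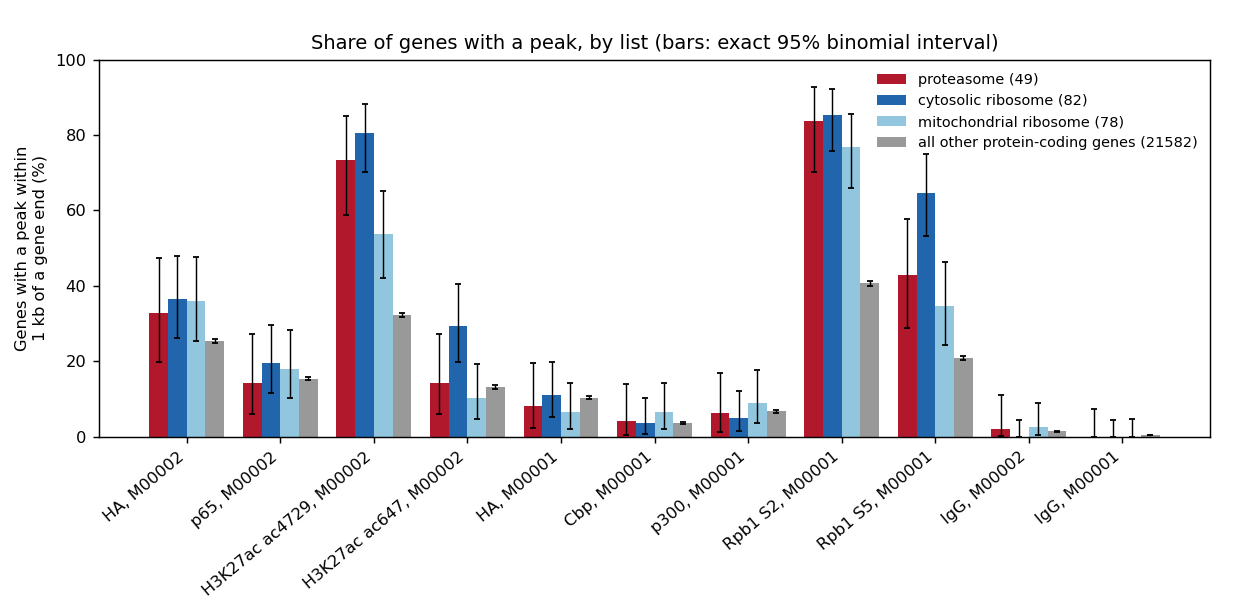
Share of genes with a peak within 1 kb of a gene end (vertical axis, percent) in each of the 11 lists (horizontal axis), for the 49 proteasome genes, 82 cytosolic ribosomal protein genes, 78 mitochondrial ribosomal protein genes and 21582 other protein-coding genes, with exact 95% binomial intervals. Proteasome bars stand above the bars of all other genes for H3K27ac ac4729, Rpb1 S2 and Rpb1 S5, and the proteasome interval holds the value of all other genes in the remaining 8 lists.

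Of the 49 proteasome genes, 44 had a peak in at least 1 of the 9 lists other than IgG (89.8%), against 52.8% of other genes. The commonest combination, at 11 genes, was ac4729 with Rpb1 S2 and nothing else, and 7 more had both with S5. Shares of other genes with exactly these combinations are not given here. In all, 22 proteasome genes carried ac4729 and S2 with no HA peak in either line and no p65 (44.9%, 30.7 to 59.8%), against 9.19% of other genes. They comprise 4 of 7 alpha, 5 of 7 constitutive beta, 2 of 6 ATPase and 7 of 11 non-ATPase genes, with Psmb10, Psmg2, Psmg4 and Psmc3ip.

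**Figure D2:**
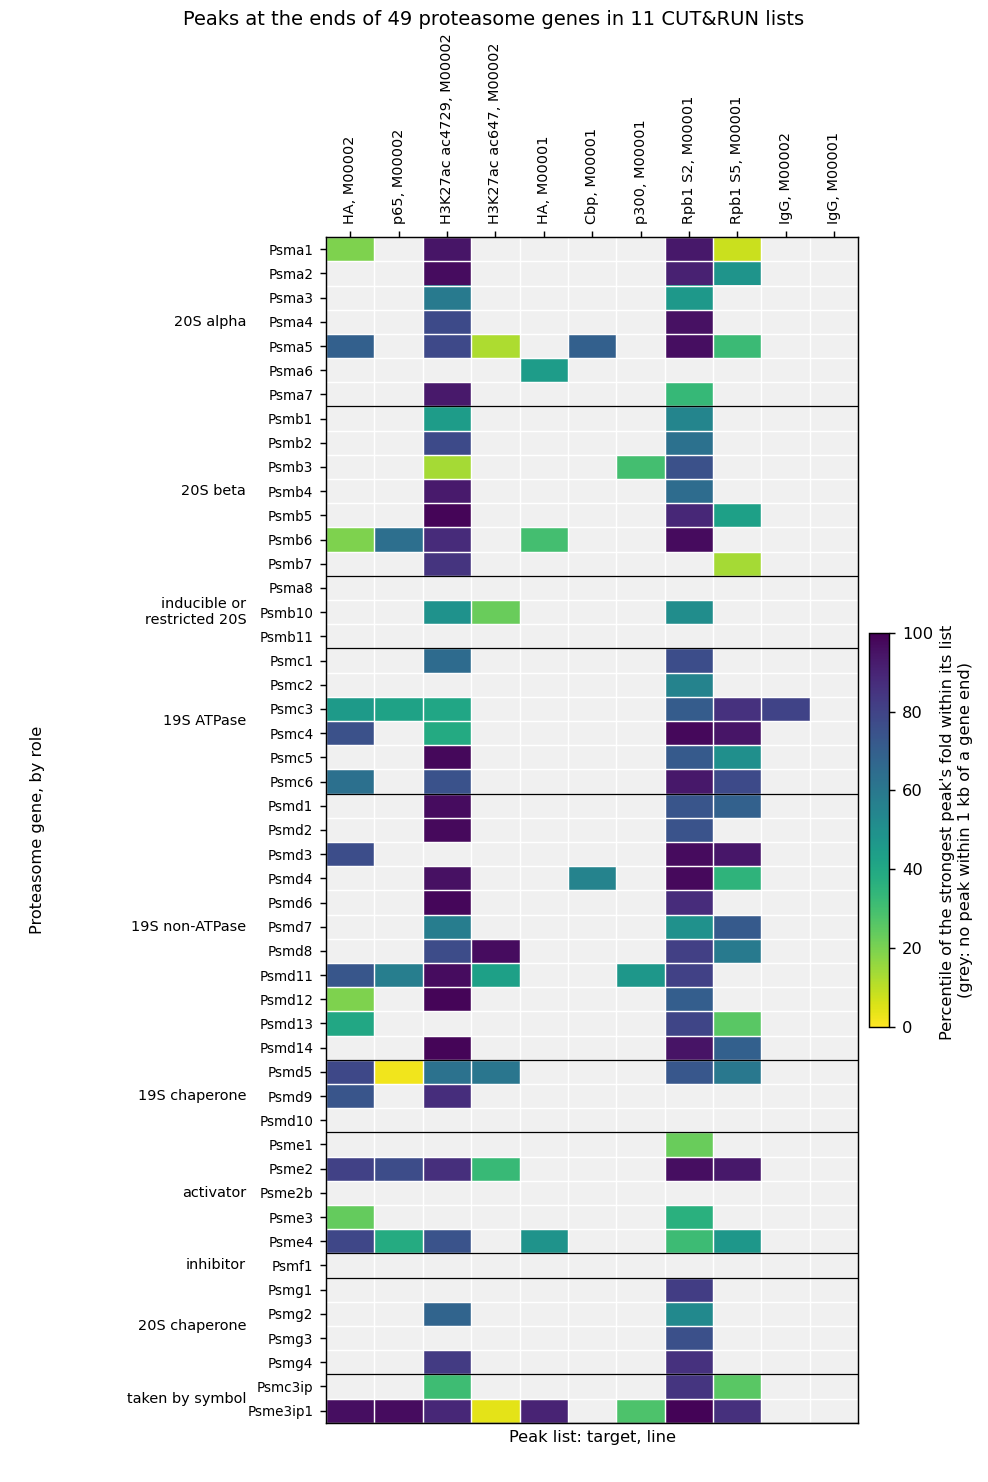
The 49 proteasome genes by role (rows) in the 11 peak lists (columns). Colour gives the percentile, within its list, of the fold enrichment of the strongest peak within 1 kb of a gene end, and grey marks no peak. The ac4729 column is filled at 36 genes and the S2 column at 41, while HA is filled at 16 genes in M00002 and 4 in M00001.

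Because active gene ends hold more peaks of most lists, the proteasome genes were also set beside other genes that carry ac4729. Among these, HA of M00002 lay at 13 of 36 proteasome genes (36.1%, 20.8 to 53.8%), against 55.0% of other genes with ac4729, and HA of M00001 at 3 of 36 (8.33%, 1.75 to 22.5%), against 25.8%. p65 lay at 7 of 36 (19.4%, 8.19 to 36.0%), against 36.2%, and ac647 at 7 of 36 (19.4%), against 37.5%. S2 lay at 34 of 36 (94.4%, 81.3 to 99.3%), against 79.1%, and S5 at 19 of 36 (52.8%), against 48.0%. Where only ac4729 peaks above the median fold of their list were kept, HA of M00002 lay at 11 of 30 proteasome genes (36.7%), against 56.6% of other genes. With both H3K27ac antibodies required, HA of both lines lay at 1 of 7 (14.3%, 0.361 to 57.9%), against 37.4%, which is too few genes to place the share.

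The genes with ac4729 were then split by whether another gene lay close by. Another protein-coding gene had an end within 2 kb of 25 of the 49 proteasome genes (51.0%), against 32.5% of other genes. Of proteasome genes with ac4729 and such a neighbour, 3 of 16 had HA of M00002 (18.8%, 4.05 to 45.6%), against 59.1% of other genes of that kind. Of those without one, 10 of 20 had it (50.0%, 27.2 to 72.8%), against 51.1%. These 2 intervals of the proteasome genes overlap, and the difference was not tested. HA of M00001 lay at 1 of 16 with a neighbour (6.25%, 0.158 to 30.2%), against 28.6%, and at 2 of 20 without one (10.0%, 1.23 to 31.7%), against 23.2%. p65 lay at 2 of 16 with a neighbour (12.5%, 1.55 to 38.3%), against 39.3%, and at 5 of 20 without one (25%, 8.66 to 49.1%), against 33.4%. For cytosolic ribosomal protein genes with ac4729 the order for HA of M00002 was the opposite, at 51.4% with a neighbour and 25.8% without. Where ends lie this close, a peak cannot be assigned to either gene. Of the proteasome genes with HA of M00002, Psmd9, Psmd13, Psme2, Psme3 and Psme3ip1 have such a neighbour.

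The ribosomal protein genes, which are also active in nearly all cells, gave similar shares for HA. HA of M00002 lay at 36.6% of cytosolic and 35.9% of mitochondrial ribosomal protein genes, beside 32.7% of proteasome genes. Among genes with ac4729 those shares were 39.4% and 42.9%, beside 36.1%. The cytosolic ribosomal genes had S5 at 64.6% and ac647 at 29.3%, beside 42.9% and 14.3% of proteasome genes. ac4729 lay at 80.5% of cytosolic and 53.8% of mitochondrial ribosomal genes, beside 73.5% of proteasome genes. For S2 the shares were 85.4% and 76.9%, beside 83.7%. Genes with ac4729 and S2 but no HA or p65 made up 37.8% and 21.8%, beside 44.9%. None of these differences was tested.

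Of the 7 alpha subunit genes, 6 had ac4729, 6 had S2, 2 had HA of M00002, 1 had HA of M00001 and 1 had ac647, and the list lengths differ. Psma1, Psma2, Psma3, Psma4, Psma5 and Psma7 had both ac4729 and S2, and Psma1, Psma2 and Psma5 also had S5. Peak strength is given as the fold enrichment at the summit over the peak caller's background, which is the authors' own value, and is used only to rank peaks within a list. Psma5 had HA of M00002 at a fold of 6.38 (69.2nd percentile of its list) with ac4729 at 4.91, ac647 at 3.25, Cbp at 3.77, S2 at 8.37 and S5 at 3.68. Psma1 had HA of M00002 at 2.99 (19.5th percentile, −log10 q 0.483), among the weakest peaks of that list.

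Psma6 and Psma3 showed how much the choice of start matters. Within 1 kb of its coordinate ends, which lie beside the gene Prorp, Psma6 had HA of M00001 at 3.98 and no other peak. At its second annotated start, 14603 bp inside the gene, it had HA of M00002 at 4.49, ac4729 at 5.57, ac647 at 3.82 and S2 at 5.75. Psma3 had its annotated start 5340 bp inside the gene end, where ac4729 was 7.03, ac647 7.32, Cbp 3.09 and S2 7.51, all stronger than, or missing from, the peaks at its coordinate ends (ac4729 4.23, S2 3.75).

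The 7 constitutive beta subunit genes all had ac4729, and 6 had S2, the exception being Psmb7, the trypsin-like subunit, which had S5 at 3.30. Psmb7 has no start in the RefSeq promoter table, and 1 S2 peak inside the gene covered 0.651% of it. Psmb5, the chymotrypsin-like subunit and the main target of proteasome inhibitor drugs, had the strongest ac4729 peak of all proteasome genes, at 8.47 (98.8th percentile of its list), with S2 at 6.57 and S5 at 3.79. It had no HA or p65 peak. Psmb6, the caspase-like subunit, was the only beta gene with HA, at 2.99 in M00002 and 3.48 in M00001 (19.5th and 29.8th percentiles). Its 2 HA peaks had −log10 q of 0.483 and 0.750, so both were weak calls. p65 ranked higher within its own list there, at 5.93 (63.5th percentile, −log10 q 4.67), with ac4729 at 5.53 and S2 at 8.84. HA and p65 overlapped over the same stretch upstream of the start, with summits at -78 bp (HA, M00002), -70 bp (HA, M00001) and -101 bp (p65).

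Among the inducible and tissue-restricted 20S genes, only Psmb10, the inducible counterpart of a constitutive beta subunit, had peaks, with ac4729 at 3.99, ac647 at 3.47 and S2 at 3.95. Psma8, known from testis, and Psmb11, known from thymic cortex, had no peak in the 9 lists. Psmb10, Psme1 and Psme2, which interferon induces with the antigen-presentation genes, thus differed among themselves. Psme1 had S2 alone, at 3.13, while Psme2 had 6 of the 9 targets.

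All 6 ATPase genes of the 19S ring had S2, 5 had ac4729 and 4 had S5. Psmc4 had HA of M00002 at 7.29 (75th percentile), with ac4729 at 3.70, S2 at 9.18 and S5 at 7.48. Psmc6 had HA of M00002 at 5.65, with S2 at 7.55. Psmc3, whose HA and p65 peaks had folds of 4.40 and 4.43, was the gene with an IgG peak, at 4.30. The HA and p65 peaks lay 928 and 933 bp beyond the higher coordinate end. The IgG peak lay 330 bp below the lower end, and the ac4729 peak (3.76) lay 19 bp inside that end, apart from the IgG peak. Psmc2 had S2 alone at its ends, at 4.09, and ac4729 at 4.71 at its second annotated start, 1472 bp inside.

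The 11 non-ATPase genes of the 19S cap all had S2, 9 had ac4729 and 7 had S5. Psmd14, the deubiquitinase that removes the ubiquitin chain, and Psmd12 had the next strongest ac4729 peaks, at 8.39 and 8.13 (98.7th and 98.6th percentiles). Psmd4, a ubiquitin receptor, had S2 at 9.11 and the weak Cbp peak at 3.43. HA of M00002 lay at Psmd3 (7.48), Psmd11 (6.97), Psmd13 (3.74) and Psmd12 (2.99). Of these, the HA peak of Psmd12 lay 18854 bp from the start, at the other end of the gene. At Psmd11 the stronger HA peak lay inside the gene at 680 bp from the start, with p65 at 5.38 beside it, and a weaker HA peak of 3.52 lay at -33 bp. Psmd11 also had ac4729 at 6.92, ac647 at 4.01, p300 at 3.69 and S2 at 5.55.

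Psmd5 and Psmd9, chaperones of 19S assembly, had HA of M00002 at 7.88 and 7.03 (78.3rd and 73.6th percentiles), and Psmd10, the third of this class, had no peak. Psmd5 also had p65, but at 3.00 (2.04th percentile, −log10 q 0.598). Psmd9 had ac4729 at 5.43 and no polymerase peak within 1 kb of its ends, while 1 S2 peak inside the gene covered 3.93% of it. Of the chaperones of 20S assembly, Psmg1, Psmg2, Psmg3 and Psmg4 all had S2, Psmg2 and Psmg4 had ac4729, and none had HA or p65.

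Among the 47 genes of the complex and its helpers taken by the symbol rule, the activator genes Psme2 and Psme4 had the strongest HA peaks of M00002, both below that of Adrm1, a subunit gene outside the rule that is described last. Psme2, a subunit of the interferon-inducible activator ring (chr14:55587440-55591101, minus strand), had HA of M00002 at 8.39 (80.6th percentile), p65 at 7.54, ac4729 at 5.40, ac647 at 3.79, S2 at 8.39 and S5 at 7.32, with no HA peak in M00001. An end of the gene Rnf31 lies within 2 kb of Psme2, so these peaks cannot be assigned to either gene. Psme4, the activator known for nuclear proteasomes and for histone degradation (chr11:30771775-30881150, plus strand), had HA in both lines, at 8.02 in M00002 (78.9th percentile, −log10 q 8.82) and 4.38 in M00001 (48.5th percentile, −log10 q 2.25). Their summits lay at -42 and -63 bp from the start. p65 ranked lower within its own list, at 3.99 (38.6th percentile), and lay at 388 bp, beside a second HA peak of 3.56 at 428 bp. Psme3, the nuclear activator, had HA of M00002 at 3.65 at the far end of the gene, 6723 bp from the start, and S2 at 3.42. Psme2b, a copy of Psme2, had none, and reads of near-identical copies may be lost in mapping, which was not tested.

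The inhibitor gene Psmf1 had no peak at its coordinate ends. Its annotated start lies 2889 bp inside, where S2 was 3.16. With Psme2b, Psmb11, Psma8 and Psmd10 it makes up the 5 genes with no peak in the 9 lists.

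The strongest fusion signal in the set belonged to Psme3ip1, which is not a subunit. It had HA at 16.3 in M00002 and 9.22 in M00001 (96.3rd and 90.2nd percentiles), p65 at 15.5, ac4729 at 5.64 and S2 at 11.8, and it was the one gene in 8 of the 9 lists. An end of the gene Rspry1 lies within 2 kb of it. Without Psme3ip1 and Psmc3ip, HA in both lines was counted at 2 of 47 genes. Psmc3ip had ac4729 at 3.57, S2 at 6.0, S5 at 3.37 and no HA.

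Promoter sequences are given for Psme4, Psmb6 and Psme2, where HA peaks cover the start, and for Psmb5 and Psmd14, picked for the strongest ac4729 peaks and no HA. Each is the 250 bases before the annotated start from RefSeq, GRCm38.p6 (the same build as the deposited mm10 peaks), 5′ to 3′ on the strand of the gene. Capitals mark matches, on either strand, to an Ets motif (CCGGAAG), a wide antioxidant response element (TGANNNNGC), a YY1 motif (AAGATGG) or an NF-Y motif (CCAAT). Matches to the PLAG family core (GGGGCC) and the Sp1 box (GGGCGG) are not marked. Psme4 holds both of these right beside its Ets match, under the HA peaks. Psmb6, Psme2 and Psmd14 hold the Sp1 box. Psme4 is at chr11:30771525-30771774, Psmb6 at chr11:70525107-70525356, Psme2 at chr14:55591102-55591351, Psmb5 at chr14:54617996-54618245 and Psmd14 at chr2:61711444-61711693.
Psme4: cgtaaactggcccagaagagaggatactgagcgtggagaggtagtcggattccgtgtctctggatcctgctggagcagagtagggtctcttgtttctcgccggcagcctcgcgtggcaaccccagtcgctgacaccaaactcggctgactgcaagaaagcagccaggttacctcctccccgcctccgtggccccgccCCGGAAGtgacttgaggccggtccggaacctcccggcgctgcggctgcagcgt
Psmb6: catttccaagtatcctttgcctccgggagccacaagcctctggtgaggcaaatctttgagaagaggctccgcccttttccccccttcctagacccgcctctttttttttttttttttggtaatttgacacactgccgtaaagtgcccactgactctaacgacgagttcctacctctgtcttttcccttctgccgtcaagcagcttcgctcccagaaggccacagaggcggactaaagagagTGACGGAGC
Psme2: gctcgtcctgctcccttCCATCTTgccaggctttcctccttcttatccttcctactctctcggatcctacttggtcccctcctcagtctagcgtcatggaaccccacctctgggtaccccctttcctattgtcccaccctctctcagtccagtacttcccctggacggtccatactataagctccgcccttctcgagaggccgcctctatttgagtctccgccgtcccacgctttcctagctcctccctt
Psmb5: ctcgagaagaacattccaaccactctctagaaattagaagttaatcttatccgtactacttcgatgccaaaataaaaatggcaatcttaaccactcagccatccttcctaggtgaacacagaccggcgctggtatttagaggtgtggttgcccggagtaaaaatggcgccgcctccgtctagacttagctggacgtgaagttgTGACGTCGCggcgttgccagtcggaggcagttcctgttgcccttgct
Psmd14: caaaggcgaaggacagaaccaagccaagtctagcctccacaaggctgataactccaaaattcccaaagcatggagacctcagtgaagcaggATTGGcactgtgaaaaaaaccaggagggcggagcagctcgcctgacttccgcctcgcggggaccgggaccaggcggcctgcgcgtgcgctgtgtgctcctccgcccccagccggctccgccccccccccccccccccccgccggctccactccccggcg
Counted from 1 at the 5′ end of each sequence, the HA summits lie at base 209 (M00002) and 188 (M00001) in Psme4, where the Ets match starts at base 198. In Psmb6 they lie at bases 173 and 181, with the p65 summit at 150 and the antioxidant element at 242. In Psme2 the HA summit is at base 194 and the p65 summit at 192, with the YY1 match at base 18. In Psmb5 the antioxidant element starts at base 204, and in Psmd14 the NF-Y match at base 92.

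**Figure D3:**
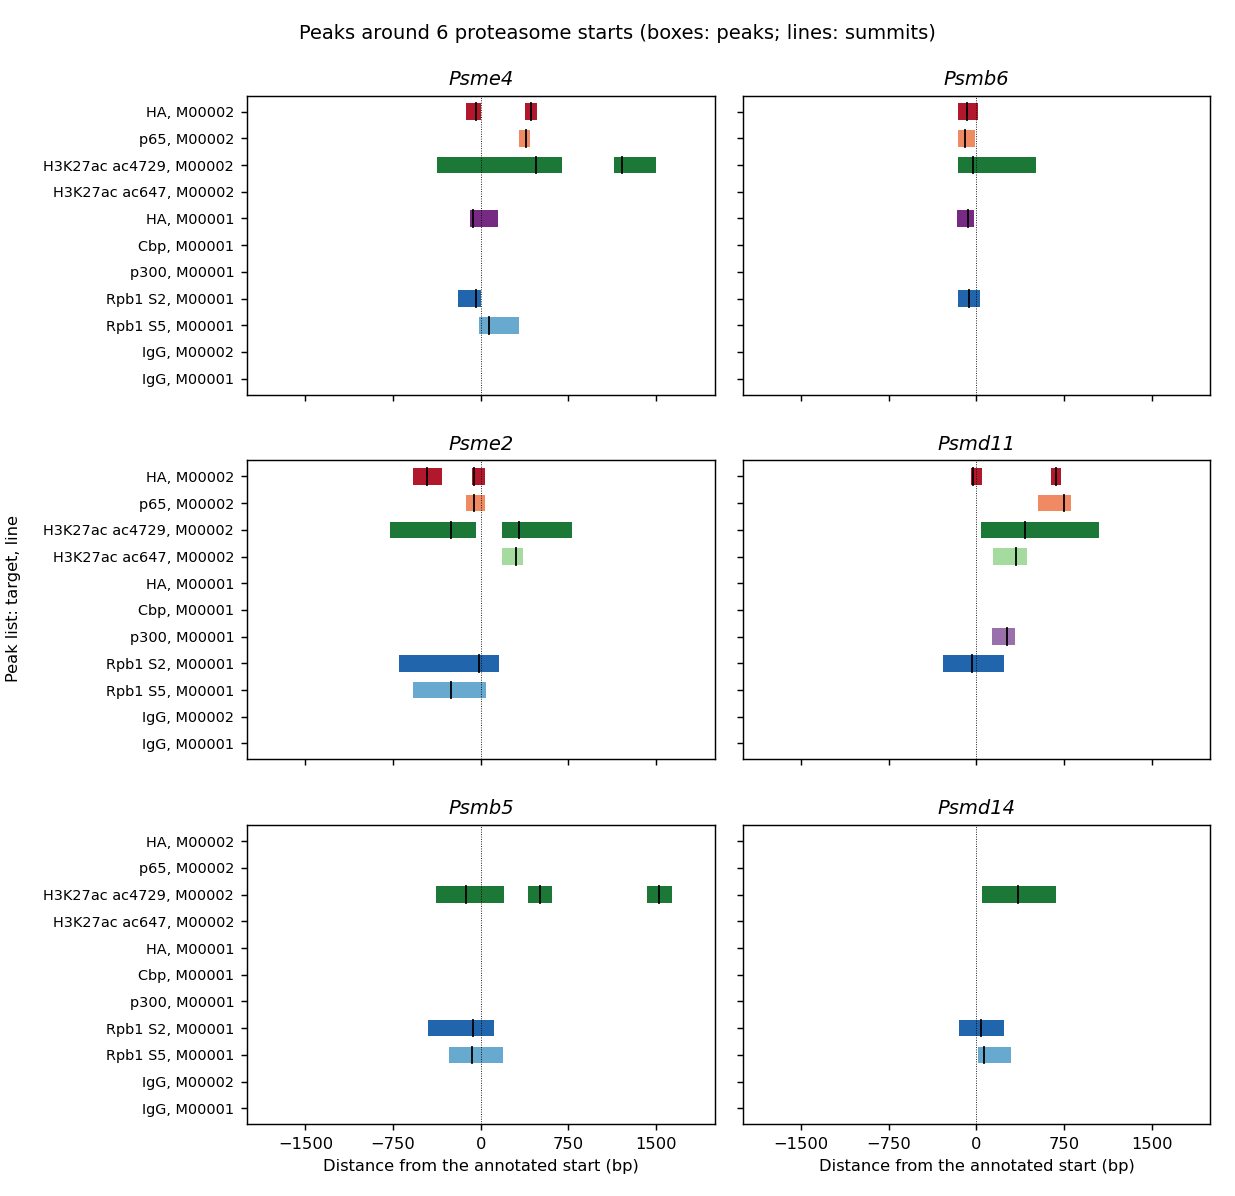
Peaks of the 11 lists (rows) by distance from the annotated start in bp (horizontal axis, positive into the gene) at 6 proteasome genes. Boxes span peaks and black lines mark summits, with no scale of strength. At Psme4 and Psmb6 the HA peaks of both lines overlap upstream of the start, at Psme2 HA and p65 of M00002 do, at Psmd11 HA and p65 lie mainly inside the gene, and Psmb5 and Psmd14 carry acetylation and polymerase only.

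The 41 proteasome genes with a promoter in that table were searched with the same 250-base window as the 17233 other genes that have one, and a gene counted where any of its promoters matched on either strand. The Ets letters CCGGAAG were found in 13 (31.7%), against 10.2% of other promoters and 16.4% of other promoters with ac4729. Of the 13, 6 are among the 15 searched genes with HA in either line and 7 among the 26 without. AAGATGG was found in 4 (9.76%), against 4.82%. The wide antioxidant element was found in 17 (41.5%), against 39.0%, and its 9-base form TGACTCAGC in 0, against 0.429%. GGGNNTTCC, an NF-kappaB form that the factor Rela can bind, was found in 1, Psmd11 (2.44%), against 6.23%, and the form GGNNTTTCC in 3 (7.32%), against 5.73%. GGGGCC, the core of the PLAG family motif, was found in 6 (14.6%), against 28.9%. CCAAT was found in 15 (36.6%), against 39.9%, and the Sp1 box GGGCGG in 22 (53.7%), against 46.3%. The Nrf1 letters GCGCATGC were found in 2 (4.88%), against 3.35%. Among other promoters with ac4729, GGGCGG was found in 64.9%, so the proteasome share was above all other promoters but below these. In the same promoters GGGGCC was found in 37.9%, CCAAT in 41.0%, GCGCATGC in 5.02% and AAGATGG in 5.51%. The wide antioxidant element was found there in 41.1%, TGACTCAGC in 0.423%, GGGNNTTCC in 7.75% and GGNNTTTCC in 6.32%. Some forms share letters and can match the same bases. Median GC content was 57.2% in the proteasome promoters, against 55.6% in the others and 60.4% in the others with ac4729. These are descriptions of the letters and were not tested.

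Peaks lay mostly at the start end, at proteasome genes and at other genes alike. Of the 41 proteasome genes with an annotated start, ac4729 was at the start end in 30 of 30 genes with a peak, against 92.8% of other genes with a peak, and S2 in 35 of 35 (1 of them also at the other end), against 94.9%. HA of M00002 was at the start end in 12 of 14 (85.7%), against 90.6%, the exceptions being Psmd12 and Psme3, and HA of M00001 in 4 of 4, against 89.9%. At 100 bp into the gene, an ac4729 peak covered 65.9% of proteasome starts, against 18.6% of other starts. At the start itself S2 covered 80.5%, against 32.8%, S5 covered 34.1%, against 12.9%, and HA of M00002 covered 19.5%, against 9.31%.

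**Figure D4:**
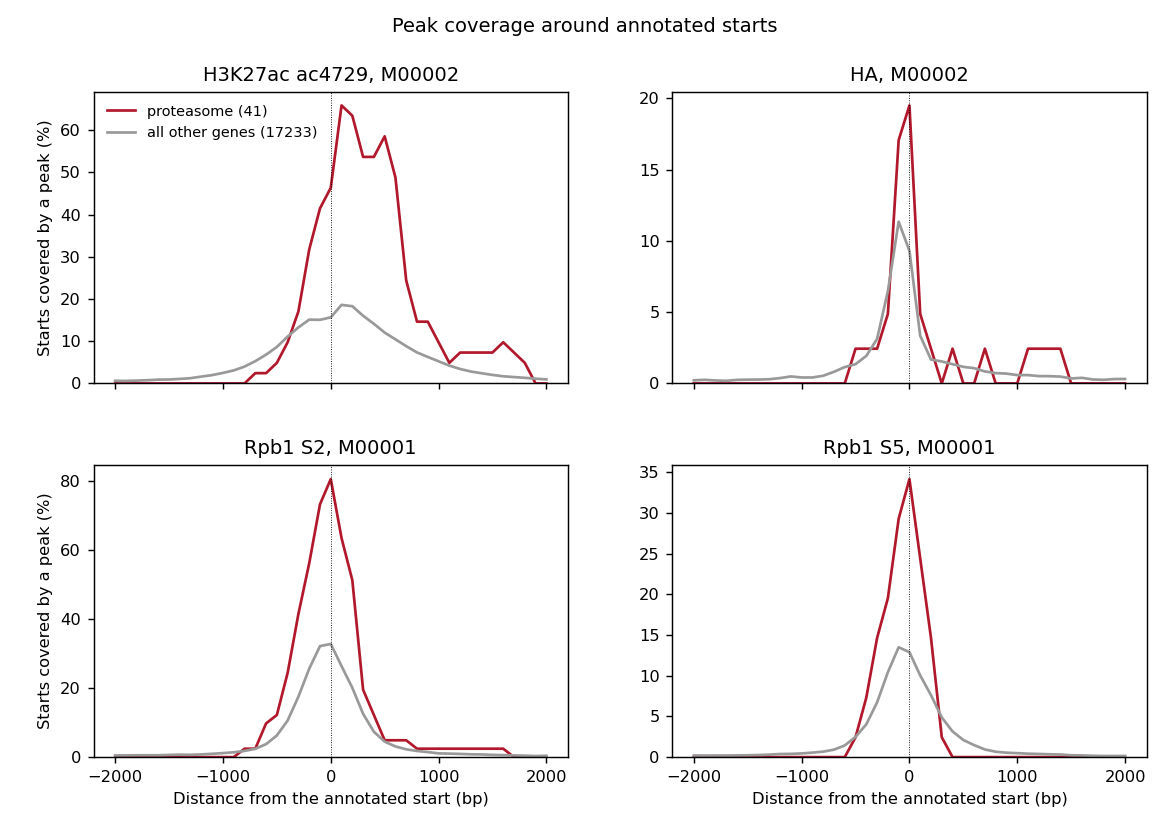
Share of annotated starts covered by a peak (vertical axis, percent, scale differs by panel) by distance from the start in bp (horizontal axis, positive into the gene), for the 41 proteasome starts (red) and 17233 other starts (grey). The proteasome line is highest at 65.9% for H3K27ac ac4729 and 80.5% for Rpb1 S2, against 19.5% for HA of M00002.

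Within their lists, ac4729 peaks at proteasome genes ranked high. Their median percentile was 83.9 (quartiles 64.3 to 95.8, 36 genes), against 71.6 (47.1 to 89.2, 6975 genes) for other genes with a peak, and the median fold was 5.24, against 4.65. For ac4729 the ribosomal protein genes ranked much the same, with median percentiles of 82.7 (cytosolic) and 81.1 (mitochondrial). The genes that act with the proteasome, described below, had 78.7. In further lists the medians of proteasome and other genes were 76.4 against 75.4 for S2 and 59.0 against 63.6 for S5. For HA of M00002 they were 71.2 against 67.5. For the few peaks in HA of M00001 (4 genes) and ac647 (7 genes) they were 46.6 against 63.4 and 32.5 against 56.9. For HA of M00002, the strongest peak had a −log10 q of at least 2 at 11 of 16 proteasome genes, against 4349 of 5462 other genes. For HA of M00001 it did at 2 of 4, against 1564 of 2212.

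Genes that act with the proteasome were also counted. From a list of 28 such genes, 27 were found. HA of M00002 lay at 14 of them (51.9%, 31.9 to 71.3%) and HA of both lines at 8 (29.6%, 13.8 to 50.2%), against the 25.3% and 9.01% of all other genes given above, while the difference from the subunit genes was not tested. ac4729 lay at 22 (81.5%), against 32.3% of all other genes, and S2 at 24 (88.9%), against 40.7%. S5 lay at 13 (48.1%), against 20.9%, and p65 at 8 (29.6%), against 15.4%. Among the 22 with ac4729, HA of M00002 lay at 63.6% (40.7 to 82.8%), against 55.0% of other genes with ac4729. HA of both lines lay at 36.4% of the 22 (17.2 to 59.3%), against 23.8%, and p65 at 36.4% (17.2 to 59.3%), against 36.2%. Each of these intervals within ac4729 holds the share of other genes. Nfe2l2, the regulator of antioxidant genes, had HA at 14.4 in M00002 and 8.23 in M00001 with p65 at 13.5. Adrm1, the ubiquitin receptor of the 19S cap whose symbol falls outside the family pattern, had HA at 13 in M00002 and 8.56 in M00001, with p65 at 8.87. Ubqln4, a shuttle protein, had HA at 19.1 in M00002 and 6.90 in M00001, with summits at -746 and -705 bp from its start.

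Vcp, the segregase that extracts ubiquitinated proteins, had HA at 8.90 in M00002 and 4.91 in M00001. Its cofactor Nploc4 had HA at 13.2 in M00002 and 8.10 in M00001, but at the end 58768 bp or more from its start. Nfe2l1, the factor that raises proteasome genes, had HA of M00002 alone, at 7.48, with ac4729 at 3.85 and S2 at 6.22. Ecpas was the one gene of this list with no peak in the 9 lists.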

How the data were processed

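CUT&RUN peak lists of 11 libraries were used, 1 list per target and line. Per the submitters' processing notes, the build was mm10 and the tools named are MACS2, Bowtie2 2.3.5.1, deepTools, FastQC and Trim Galore, with no settings. The deposited lists give for each peak a score, which was not used, and a fold enrichment, which is a ratio of the signal to the background that the caller estimated. They also give the authors' p-value and q-value as −log10 values. Every list holds peaks with a −log10 p of about 3 or more. Reads were not analysed here, so depth is unknown, and no spike-in or cross-library scaling was available, so folds were compared only as percentiles within a list.

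Genes were the protein-coding genes of RefSeq GRCm38.p6 on chromosomes 1 to 19 and X. A peak counted for a gene when it came within 1 kb of a coordinate end. Strand and starts came from the RefSeq promoter table, which holds 41 of the 49 genes. Shares have exact (Clopper-Pearson) 95% binomial intervals, and no test was run, since each target and line had 1 library. Neighbours are protein-coding genes with an end within 2 kb. The overlap code was tested on simulated peaks. Python 3.11.15, numpy 2.4.6, pandas 2.3.3, scipy 1.17.1 and matplotlib 3.10.9 were used.

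The members, role classes, lists of other genes and motifs were chosen with earlier results of these data known. The naming rule was: genes with HA in both lines, the strongest HA gene of each role, genes with no peak or with an IgG peak, and up to 6 other pathway genes ranked by HA percentile in both lines. One gene that this rule takes is not reported here. Other genes named, such as Psmb5 and Psmd14 for ac4729, were chosen after their values were seen. Alternatives were other windows, summit in place of peak, q limits, removal of peaks that overlap IgG, the 5000 strongest peaks, and genes without neighbours. Dropping Psmc3ip and Psme3ip1, using annotated starts, and ac4729 alone as the acetylated set were added after the data were seen.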

Additional observations from a re-analysis of the deposited data

How the results depend on the processing

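Of 144 recomputed values, 101 stayed within 1.5 times the reported count or, for percentages and medians, within the reported interval or quartiles, and 43 did not. Where the genes without neighbours or the annotated starts replaced the 49 genes, the share of genes was compared in place of the count. ac4729 lay at 18 to 38 proteasome genes and S2 at 20 to 43 across the settings that keep all 49 genes, in each case at a share above that of other genes. HA of M00002 at the 5000 strongest peaks per list lay at 1 gene (6.70% of other genes), and at a −log10 q of at least 5 at 9 (13.4%).

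Counts of proteasome genes were as follows where they moved, each with the share of other genes at that setting in parentheses. At a −log10 q of at least 2 they were 4 for ac647 (11.1%) and 2 for HA of M00001 (7.25%). Cbp (1.01%), p300 (3.75%) and IgG of M00002 (0.255%) fell to 0. Both H3K27ac antibodies gave 4 (10.4%), of which 0% had HA in both lines, against 31.8% of such other genes. At a −log10 q of at least 5 they were 2 for p65 (7.08%), 1 for ac647 (4.96%) and 6 for S5 (7.33%). HA of M00001 gave 1 (4.4%) and HA in both lines 1 (4.12%). Cbp (0.269%), p300 (1.06%) and IgG of M00002 (0.13%) fell to 0. Both H3K27ac antibodies gave 1 (4.37%), of which 0% had HA in both lines, against 31.4% of such other genes. With the 5000 strongest peaks they were 2 for p65, 18 for ac4729, 1 for ac647, 20 for S2, 11 for S5, 1 for HA in both lines and 0 for both H3K27ac antibodies. A window of 250 bp gave 4 for p65 (10.7%), 4 for ac647 (8.41%) and 0 for IgG of M00002 (0.547%). Both H3K27ac antibodies gave 3 there (7.4%). A window of 5 kb gave 11 for ac647 (21%), 8 for HA of M00001 (16.5%) and 8 for Cbp (7.12%). IgG of M00002 gave 4 there (4.81%), HA in both lines 7 (14.5%) and both H3K27ac antibodies 11 (19.8%). Annotated starts gave, of 41 genes, 9 for ac647 (13.3%), 3 for Cbp (3.42%) and 0 for IgG of M00002 (1.05%). The 24 genes without neighbours held 2 with Cbp (2.9%) and 1 with IgG of M00002 (1.41%). These were the same counts as over 49 genes and so larger shares. Ranking by −log10 p gave median percentiles of 57.2 for Cbp and 28 for p300, against 50.5 and 54.4 for other genes. Fewer peaks or a narrower or wider reach are built into the q, rank and window settings. For the other moves the cause was not tested.

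No paired analysis was possible because each target and line had 1 library and no test was run. The limits are the unknown read depth, the lists called with different numbers of peaks, ends shared with neighbours, and starts that lie away from the coordinate ends.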
